A study of Drosophila melanogaster with 120 samples.

Results

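The genes of the dorsal group and of the Toll pathway were followed by sex and over 15 hemiclonal lines of Drosophila melanogaster. The members were grk, pip, gd, snk, ea, spz, Tl, tub, pll and dl, each taken through the probe sets that the array annotation gives to that gene alone. These were 10 genes, read by 21 probe sets, of 11981 genes and 18769 probe sets in all. The gene pip had 10 probe sets, dl and Tl had 2 each, and the other 7 members had 1 each. A gene with several probe sets is described by the one with the highest mean over all arrays, and its other probe sets are given beside it.

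RNA of adult females and of adult males was hybridised to 120 Affymetrix arrays, 4 independent samples for each sex of lines H07, H09, H10, H12, H13, H14, P07, P13, P15, P18, P22, P26, P48, P50 and P56. Every sample was 6 pooled whole flies on Day 14, as 4-day-old adults, after 24 h in vials with testers of the other sex and a further 20 h apart from them, so both sexes had been given the chance to mate. All flies of a line carried the same haploid genome, save for the dot chromosome, sampled from the outbred population LHM, and their other genome was drawn at random from LHM, so a line difference is the mean effect of 1 haplotype over varied partners. Males carried the X chromosome of the line without a second X. Values are given on the log2 scale of RMA, which equalises the distribution of probe signals over arrays before they are summarised per probe set. Every difference is female minus male.

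In the mother, the dorsal group sets the dorsal-ventral axis of the egg. The oocyte signals through Gurken, encoded by grk, to the dorsal follicle cells, and the sulfotransferase Pipe, encoded by pip, acts in the ventral ones. A chain of serine proteases in the fluid around the embryo then cuts the ligand Spätzle, which binds the receptor Toll, and Tube and Pelle carry the signal to the transcription factor Dorsal. Adult flies use Spätzle, Toll, Tube and Pelle again in the fat body and in blood cells against fungi and Gram-positive bacteria, with another set of proteases upstream. The maternal patterning steps were grk, pip, gd, snk and ea, and the steps shared with immunity were spz, Tl, tub, pll and dl. In whole flies, a lower level can come from fewer cells of a type or from less RNA per cell, and these cannot be told apart.

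The sex labels were borne out by the arrays. The mean of 5 genes of the female germ line was 10.14 to 10.59 in female arrays and 3.54 to 4.43 in male arrays, and that of 6 testis genes was 4.10 to 4.57 in female arrays and 9.81 to 10.44 in male arrays. Over transcripts, which are not independent replicates, the 180 pairs of samples that share line and sex had Pearson correlations of 0.988 to 0.997. The median level of the summarised values was not the same in the sexes. The median over all transcripts was 0.64 lower in female arrays, while the median of 42 ribosomal protein transcripts was 0.67 higher in them. The median difference over all transcripts was 0.27 as deposited. It was 0.91 when the median of each array was subtracted (array centring) and -0.40 when the median of those 42 transcripts was subtracted (ribosomal centring), so that a difference between -0.64 and 0.67 changes sign under one of these scalings.

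Nearly the whole pathway was read at a higher level in females. Of the 10 members, 9 were higher in females, 0 in males, and 1, pip, did not pass the F test of sex at a false discovery rate of 0.001. Over all 18769 transcripts, 60.9% were higher in females and 30.5% in males by the same test, 91.4% in all, so that a call for sex alone is the usual result on these arrays. The sizes were less usual: 8 of the 10 members were at least 2-fold higher in females, against 20.4% of all transcripts, and in these 8 every female array lay above every male array, against 24.8% of all transcripts. The median difference of the members was 2.09, beside 0.27 over all transcripts. The maternal steps had a median of 2.12, with 4 of 5 higher in females, and the shared steps had a median of 2.06, with 5 of 5 higher in females. The plot of the 60 female and 60 male arrays shows the gaps gene by gene.

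**Figure D1:**
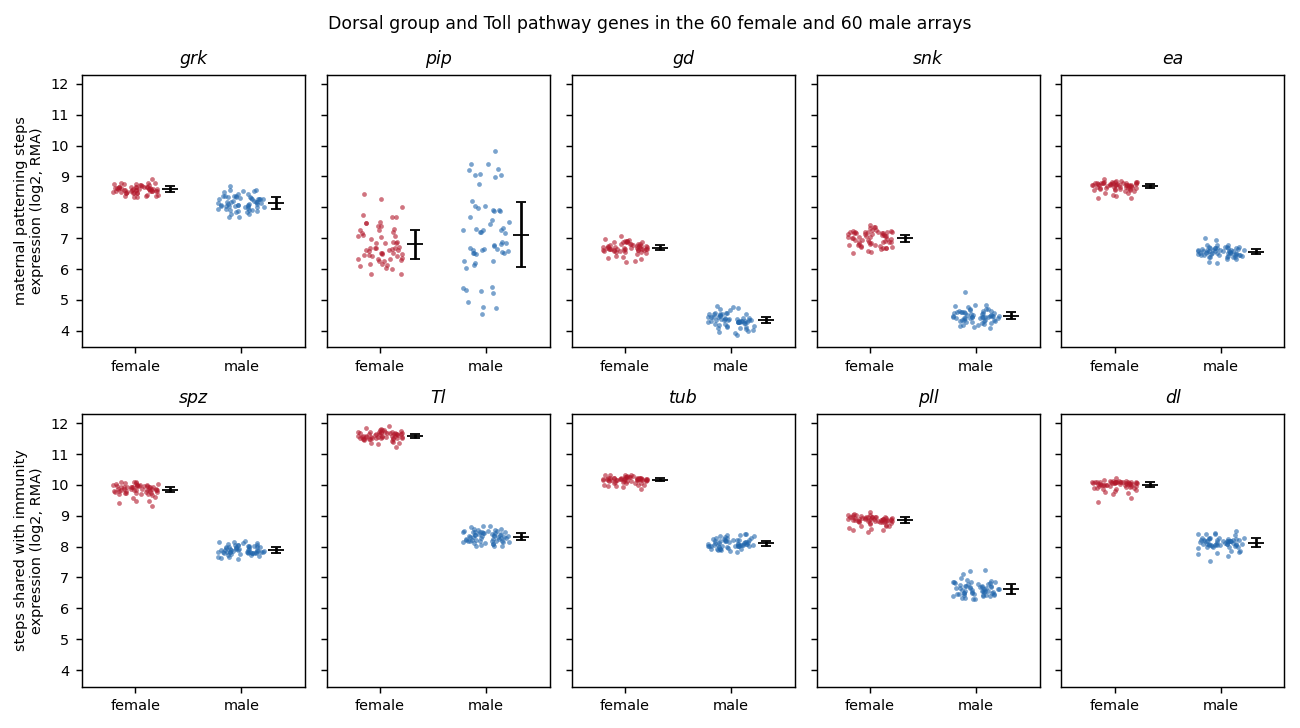
Expression (log2, RMA) of the 10 members in 60 female arrays (red, left) and 60 male arrays (blue, right), with the mean and SD of the 15 line means in black. In 8 of the genes the sexes do not overlap, in grk they overlap in part, and in pip the male arrays, from 4.56 to 9.82, span the female ones.

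The oocyte ligand grk differed little between the sexes. Its female arrays ran between 8.34 and 8.91 with a median of 8.59, and its male arrays between 7.69 and 8.69 with a median of 8.14. The ranges overlapped, although the female mean was above the male mean in 15 of 15 lines. Line means averaged 8.58 ± 0.10 in females and 8.15 ± 0.20 in males (SD, n = 15), and the difference was 0.43 (SE 0.045), a 1.35-fold difference with a 95% interval of 1.26 to 1.44 (adjusted p = 1.9e-07). The direction rested on the scale: under ribosomal centring the difference was -0.24 (adjusted p = 0.00018), and under array centring it was 1.07.

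The 3 proteases among the members were all higher in females without overlap. The gene gd, on the X chromosome, encodes an early protease of the maternal cascade in the fluid around the embryo. It read 6.24 to 7.07 in female arrays (median 6.68) and 3.86 to 4.79 in male arrays (median 4.34). The difference was 2.34 (SE 0.032, adjusted p = 1.8e-18). The gene snk, on arm 3R, encodes Snake, the next protease, and read 6.53 to 7.42 in female arrays (median 7.02) and 4.09 to 5.26 in male arrays (median 4.46). The difference was 2.51 (SE 0.049, adjusted p = 1.2e-16). The male means of both genes, 4.34 for gd and 4.48 for snk, were under 5, the level called dim here, where the female germ line genes also lie in males, so these differences are lower bounds if the male signal was background. The gene ea, on arm 3R, encodes Easter, which cuts Spätzle, and read 8.30 to 8.91 in female arrays (median 8.71) and 6.20 to 6.99 in male arrays (median 6.56). It was 4.34-fold higher in females (95% interval 4.14 to 4.55, adjusted p = 3.7e-18), and its male arrays were all above the dim level.

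The ligand and the receptor of the shared steps were high in both sexes and higher in females. For spz, which encodes Spätzle, the female arrays held 9.31 to 10.10 (median 9.87) and the male arrays 7.61 to 8.18 (median 7.89), a 3.87-fold difference (95% interval 3.73 to 4.02, adjusted p = 8.7e-19). For Tl, which encodes the receptor Toll, the female arrays held 11.23 to 11.90 (median 11.58) and the male arrays 8.02 to 8.66 (median 8.33). This was a 9.65-fold difference (95% interval 9.12 to 10.2, adjusted p = 2.2e-19), and its difference of 3.27 was the largest measured among the members, where those of gd and snk may be lower bounds. The other probe set of Tl was dim, at 4.08 in females and 3.65 in males, with a difference of 0.43. That value is within what dim transcripts gave in general, since the 5874 transcripts under 5 in both sexes had a median difference of 0.29, with 10% under -0.01 and 10% over 0.50.

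The steps inside the cell followed the receptor. The adaptor gene tub read 9.85 to 10.33 in female arrays (median 10.18) and 7.82 to 8.40 in male arrays (median 8.08), a 4.16-fold difference (95% interval 4.01 to 4.31, adjusted p = 2.5e-19). The kinase gene pll read 8.48 to 9.13 in female arrays (median 8.86) and 6.31 to 7.25 in male arrays (median 6.62), a 4.64-fold difference (95% interval 4.40 to 4.88, adjusted p = 7.3e-18). For both genes all 60 female arrays were above all 60 male arrays, and the difference held in 15 of 15 lines.

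The transcription factor gene dl gave opposite answers at its 2 probe sets. At the brighter one, female arrays held 9.45 to 10.24 (median 10.04) and male arrays 7.54 to 8.52 (median 8.13), a difference of 1.88 (SE 0.029) and a 3.69-fold excess in females (adjusted p = 6.2e-18). At the dimmer one, female arrays held 6.72 to 7.72 (median 7.04) and male arrays 8.08 to 8.96 (median 8.54), a difference of -1.46 (SE 0.046, adjusted p = 5.5e-14). Neither probe set had any overlap of the sexes, and the second was higher in females in 0 of 15 lines. Its difference stayed negative, at -0.83 and -2.14, under array centring and ribosomal centring. The gene makes more than 1 transcript by alternative splicing, and the annotation used here gives both probe sets to dl without saying which transcripts each one reads. The count of 9 members higher in females therefore holds for dl by its brighter probe set only.

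**Figure D2:**
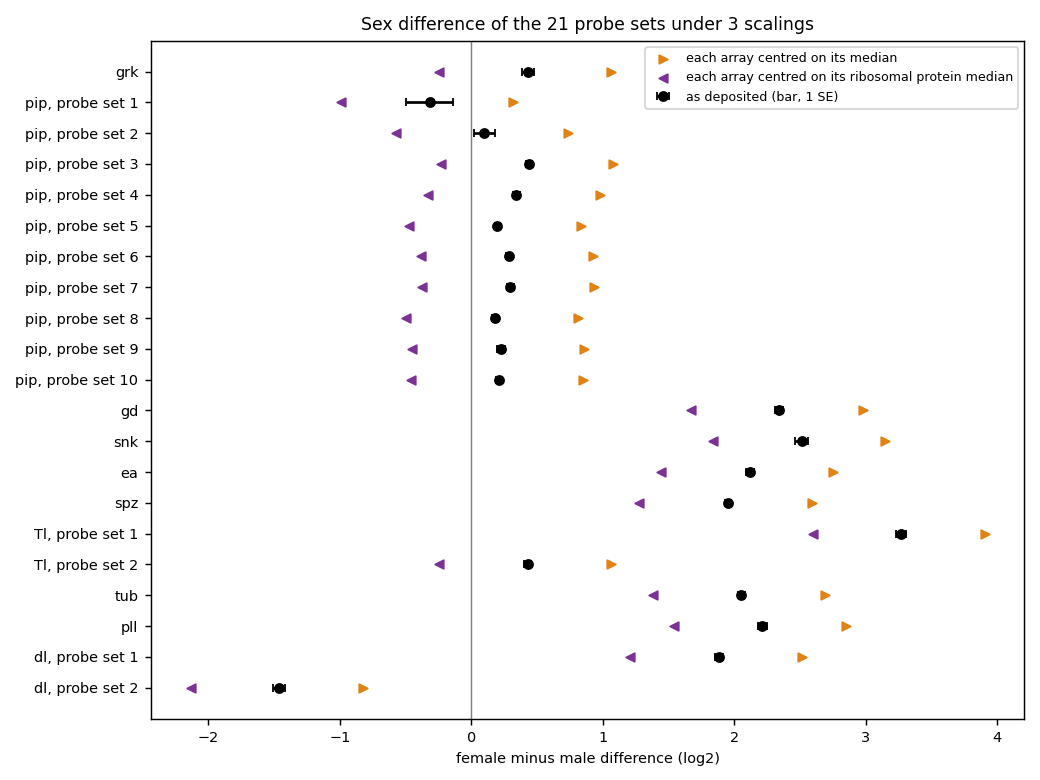
Female minus male difference (log2) of the 21 probe sets of the 10 members, as deposited (black, with 1 SE) and under array centring (orange) and ribosomal centring (purple). The gene grk moves between -0.24 and 1.07 across zero, 8 members stay above 1, and the second probe set of dl stays below zero.

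The sulfotransferase gene pip was the exception among the members. Its brightest probe set read 5.83 to 8.42 in female arrays (median 6.67) and 4.56 to 9.82 in male arrays (median 7.02), so the sexes overlapped over the whole female range. The difference of -0.32 (SE 0.18) did not pass (adjusted p = 0.10), and 7 of 15 lines were higher in females. Under ribosomal centring the difference was -0.99 and passed (adjusted p = 6.6e-05), and under array centring it was 0.32 (adjusted p = 0.090). The pip locus makes several sulfotransferase forms from alternative 3' exons, and the annotation used here does not assign probe sets to forms. The other 9 probe sets were under 5 in both sexes, and 8 of them were called higher in females with differences of 0.18 to 0.44, inside the range that dim transcripts gave in general. The remaining one, the second brightest, read 4.49 to 5.29 in female arrays and 4.17 to 5.58 in male arrays, with a difference of 0.10 (SE 0.079, adjusted p = 0.23).

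Differences among lines were tested within each sex as the share of variance that lies between line means. In males, 4 of the 10 members passed, namely grk, pip, pll and dl, where 27.3% of all transcripts did. In females, 2 of the 10 passed, grk and pip, where 8.36% of all transcripts did. The maternal steps held 2 of the male calls and 2 of the female calls, and the shared steps held 2 of the male calls and 0 of the female calls. Over both sexes together, with line tested against the sex-by-line term, 0 of 10 passed in the mixed model, where 0.282% of all transcripts did. At an unadjusted p under 0.05 there were 4 of 10, where 15.4% of all transcripts were, and by limma with line as a fixed effect 4 of 10 passed, where 27.4% of all transcripts did. The counts were lower with fewer samples: with the arrays of 1 replicate number left out, 0 to 3 members passed in males and 0 in females. The share of all transcripts that passed with those arrays left out was not counted, so a general loss of power cannot be told apart.

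The largest differences among lines were in pip. In males, the share of variance between lines was 53.0% (adjusted p = 3.8e-05), and 3 lines stood apart from the other 12. The 4 male samples of P50 read 9.04, 9.23, 8.99 and 9.20, those of P13 read 9.07, 7.96, 9.82 and 9.40, and those of P26 read 9.05, 8.74, 9.40 and 8.20. The line means were 9.12 for P50, 9.06 for P13 and 8.85 for P26, and the other 12 male line means were between 6.05, in P18, and 7.29, in H10. The gap of 1.55 between H10 and P26 is to be read against a standard error of 0.63 for a difference between 2 male lines, and no gap between other neighbours in the order exceeded that error. The 12 male arrays of P13, P26 and P50 started at 7.96, and the 48 male arrays of the other lines ended at 8.03, so that single arrays met at the edge.

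The same 3 lines were highest in females. The 4 female samples of P13 read 7.16 to 8.42, those of P26 read 7.68, 7.52, 7.39 and 7.70, and those of P50 read 7.51, 7.29, 7.50 and 7.26. Their means were 7.97, 7.57 and 7.39, and the other 12 female line means lay between 6.38, in P07, and 6.74, in H13. The share of variance between lines in females was 48.4% (adjusted p = 0.00049). In all 3 lines males were above females, with differences of -1.73 to -1.10, while in the other lines the difference ran from -0.75 to 0.53 and 7 of 12 were higher in females. The 3 lines were set apart by their high values, most of all in males, so this contrast partly follows from that choice. The sex-by-line term of pip did not pass (11.3% of the variance, adjusted p = 0.11). Because P13, P26 and P50 stood apart, a correlation of the sexes over all lines has no clear meaning, and over the other 12 lines r was -0.21 (p = 0.50 by permutation) and rho was -0.17 (p = 0.58). The male call was lost without P50 (adjusted p = 0.0014), and the female call without P07 (adjusted p = 0.0012), P13 (adjusted p = 0.043), P26 (adjusted p = 0.0055) or P50 (adjusted p = 0.0025). The male call was also lost without replicate number 1 (adjusted p = 0.0026), 3 (adjusted p = 0.0017) or 4 (adjusted p = 0.0049). The female call was lost without any 1 of the replicate numbers (adjusted p = 0.0019 to 0.057). With P13, P26 and P50 all left out, a choice made after their values were seen, the share between lines was 0% in males and 0% in females.

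The samples of pip also spread widely within lines. The 4 male samples of a line differed by 0.24, in P50, to 2.72, in P15, with a median range of 1.85, while the 4 female samples differed by 0.23 to 1.90, with a median range of 0.65. The other 9 members had a largest range within a line of 0.30 to 0.81 in either sex. The standard deviation of the male line means of pip, 1.05, ranked 25 among all 18769 transcripts, and that of its female line means, 0.46, ranked 199. The second brightest probe set gave the same 3 lines the highest male means, 5.31 in P50, 5.26 in P13 and 5.13 in P26, where the next was 5.12 in P15. It passed for line in males (50.8%, adjusted p = 8.1e-05) and for sex by line (43.5%, adjusted p = 0.00014) but not in females (adjusted p = 0.11). This probe set was dim in both sexes. Its female means were 5.17 in P26, the highest, and 5.01 in P50, but P13 was next to lowest at 4.72. In females the 2 probe sets were not correlated over the 15 lines (r = 0.09, p = 0.74 by permutation). In males they were correlated over the 15 lines by r (0.76, adjusted p = 0.0099 by permutation, over 6 such relations). By rank they were not (rho = 0.50, adjusted p = 0.17). The 15 lines take in P13, P26 and P50. Over the other 12 lines the 2 probe sets were not correlated in males (r = -0.15, p = 0.68 by permutation; rho = 0.03, p = 0.94).

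**Figure D3:**
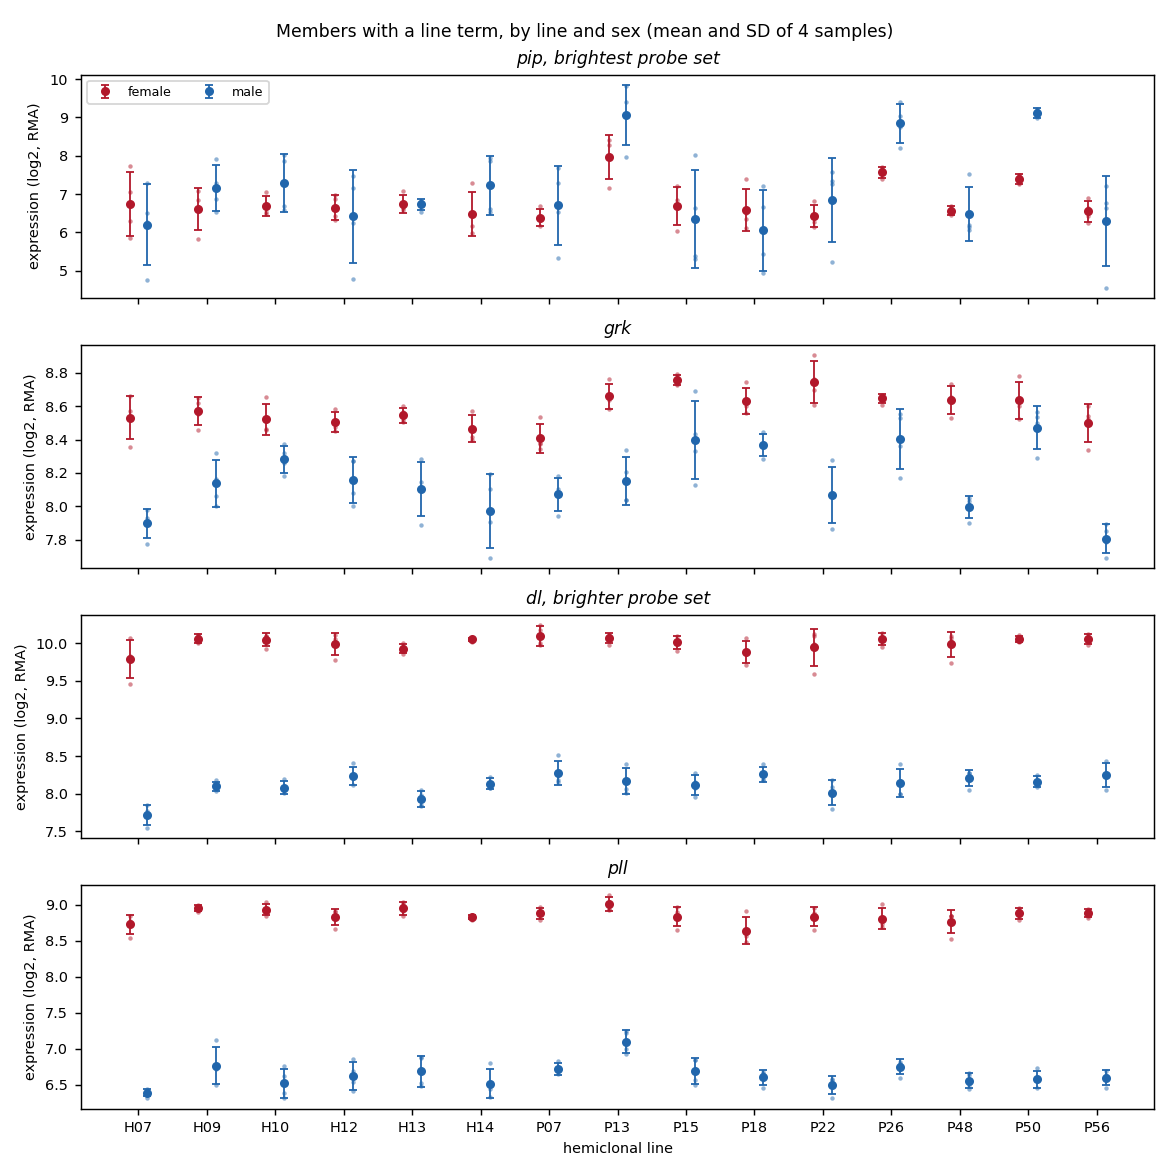
Expression (log2, RMA) of pip, grk, dl and pll in each of the 15 lines, with females (red, left of each pair) beside males (blue), single samples as small points and the mean with SD of 4 samples as large ones. Lines P13, P26 and P50 stand above the rest for pip in both sexes, and line H07 is lowest for dl in both.

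The line differences of grk were smaller and more even. In males they took 62.4% of the variance (adjusted p = 8.7e-07), with line means from 7.81 in P56 and 7.90 in H07 to 8.40 in P26 and 8.47 in P50. In females they took 52.1% (adjusted p = 0.00015), from 8.41 in P07 and 8.46 in H14 to 8.74 in P22 and 8.76 in P15. No line stood apart: the largest gap between neighbours was 0.12 in males and 0.083 in females, against standard errors of 0.10 and 0.061 for a difference between 2 lines, and only 1 male gap and 2 female gaps exceeded these errors. It was also the only member with a sex-by-line term that passed, at 32.7% of the variance (adjusted p = 0.00018), where 9.87% of all transcripts passed. Line P22 was 8.74 in females and 8.07 in males, while line P50 was 8.63 in females and 8.47 in males. This call was lost without P50 (adjusted p = 0.0014) or P56 (adjusted p = 0.0015), and without replicate number 1 (adjusted p = 0.034), 2 (adjusted p = 0.0054) or 4 (adjusted p = 0.015). The male line call of grk was lost without replicate number 1 (adjusted p = 0.0021), and the female line call without P07 (adjusted p = 0.0017), P15 (adjusted p = 0.0026) or any 1 of the replicate numbers (adjusted p = 0.0027 to 0.042). The order of lines was related only loosely between the sexes (r = 0.48, p = 0.069, adjusted p = 0.17; rho = 0.45, p = 0.093, adjusted p = 0.40).

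For dl the male line term rested on line H07 more than on any other line. It took 51.5% of the variance (adjusted p = 6.4e-05), and line H07 was lowest, with samples at 7.54, 7.76, 7.69 and 7.85 and a mean of 7.71, where the next line, H13, was at 7.93 and the highest, P07, at 8.28. The gap of 0.22 below H13 compares with a standard error of 0.090 for a line difference. Without H07 the share was 24.9% (adjusted p = 0.053), and under ribosomal centring it was 33.6% (adjusted p = 0.0050). The male call was lost in both, and also without replicate number 1 (adjusted p = 0.0042), 3 (adjusted p = 0.0086) or 4 (adjusted p = 0.0022). H07 was lowest in females too, at 9.79 against 9.88 to 10.10 in the other lines, but its 4 female samples ran from 9.45 to 10.07 and the female line term did not pass (14.9%, adjusted p = 0.28). The second probe set of dl passed in males as well (46.4%, adjusted p = 0.00031), again with H07 lowest at 8.30 and with P18 highest at 8.77. In males the 2 probe sets of dl, though opposite by sex, varied together over lines (r = 0.71, adjusted p = 0.0081; rho = 0.72, adjusted p = 0.020, over 6 such relations; r = 0.63 without H07 and H13), which was not seen in females (r = -0.33, adjusted p = 0.46; rho = -0.26, adjusted p = 0.70).

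For pll the male line term leaned most on P13, but it was lost in other settings too. It took 45.2% of the variance (adjusted p = 0.00044). Line P13 was highest, with samples from 6.92 to 7.25 and a mean of 7.10, where the next line, H09, was at 6.77 and the lowest, H07, at 6.39. Without P13 the share was 17.8% (adjusted p = 0.13), and without H07 it was 39.2% (adjusted p = 0.0036). P13 was also highest in females, at 9.01 with P18 lowest at 8.64, and the female share of 32.0% did not pass (adjusted p = 0.027). Among the members with no line call in either sex, the shares were 0% to 7.89% in females and 0.23% to 32.1% in males, the last for spz (adjusted p = 0.011).

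The lines that were highest for pip were the same in both sexes, as described above, and P13 was highest for pll in both. Over all 15 lines, leaving pip aside, none of the other 9 members passed in the set of 10 female to male correlations over line means. The closest were dl (r = 0.65, p = 0.015, adjusted p = 0.075; rho = 0.38, p = 0.16, adjusted p = 0.40) and pll (r = 0.58, p = 0.027, adjusted p = 0.091; rho = 0.49, p = 0.068, adjusted p = 0.40). Without the 2 lines farthest from the male median these became -0.02 for dl, without H07 and H13, and 0.23 for pll, without H07 and P13. Single lines also turned the call the other way: without P18 both passed (r = 0.85, adjusted p = 0.0098 for dl and r = 0.69, adjusted p = 0.017 for pll), and likewise without H10 (r = 0.67 for dl and r = 0.66 for pll, adjusted p = 0.048 for both).

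Within females, pairs among the members from gd to dl were positively correlated over lines, and no pair with grk or pip passed. Of 45 pairs of members, 12 passed in females, all with positive r and all among gd, snk, ea, spz, Tl, tub, pll and dl, whose 28 pairs had a median r of 0.63 (0.37 to 0.81). The strongest were Tl with tub (r = 0.81, p = 8e-05, adjusted p = 0.0072; rho = 0.81, adjusted p = 0.032) and spz with pll (r = 0.80, adjusted p = 0.016; rho = 0.64, adjusted p = 0.12), over 90 pairs in the 2 sexes together. By rank, the only female pairs that passed were Tl with tub and tub with dl (rho = 0.79, adjusted p = 0.035). The share of pairs that pass among all transcripts was not measured. The 9 pairs with grk had r between -0.52 and 0.35 and none passed. Those with pip ran from r = -0.07 with ea to r = 0.62 with snk (adjusted p = 0.061), and none passed either. In males 3 of 45 pairs passed, and the same 28 pairs had a median r of 0.32 (-0.60 to 0.76). They were spz with Tl (r = 0.66, adjusted p = 0.048; rho = 0.51, adjusted p = 0.17), Tl with tub (r = 0.76, adjusted p = 0.020; rho = 0.76, adjusted p = 0.049) and tub with pll (r = 0.71, adjusted p = 0.020; rho = 0.70, adjusted p = 0.085). The difference between the sexes in these correlations was not tested.

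The female pattern rested on lines H07 and P18 and moved with the scale of the arrays. Without H07, 1 of 45 female pairs and 0 of 45 male pairs passed, and without P18 also 1 female pair. The median of all transcripts on the arrays of a line correlated with 6 members in females, of 20 relations tested in the 2 sexes, between r = -0.68 for pll (adjusted p = 0.022) and r = -0.84 for ea (adjusted p = 0.0008). By rank only ea (rho = -0.79, adjusted p = 0.017) and spz (rho = -0.72, adjusted p = 0.033) passed, and without H07 and P18 the r of ea was -0.68 and that of gd -0.26. Array centring gave 19 female pairs and ribosomal centring gave 2. In males the array median correlated with Tl, tub and dl (r = 0.60, 0.60 and 0.66, adjusted p = 0.044, 0.041 and 0.037), none by rank. Mean levels of markers of the germ line, follicle cells, testis, accessory gland, haemocytes, fat body and muscle were set against every member in each sex. Of these 140 relations 0 passed, with 19 at an unadjusted p under 0.05. The part of any of these in the female pattern was not tested.

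**Figure D4:**
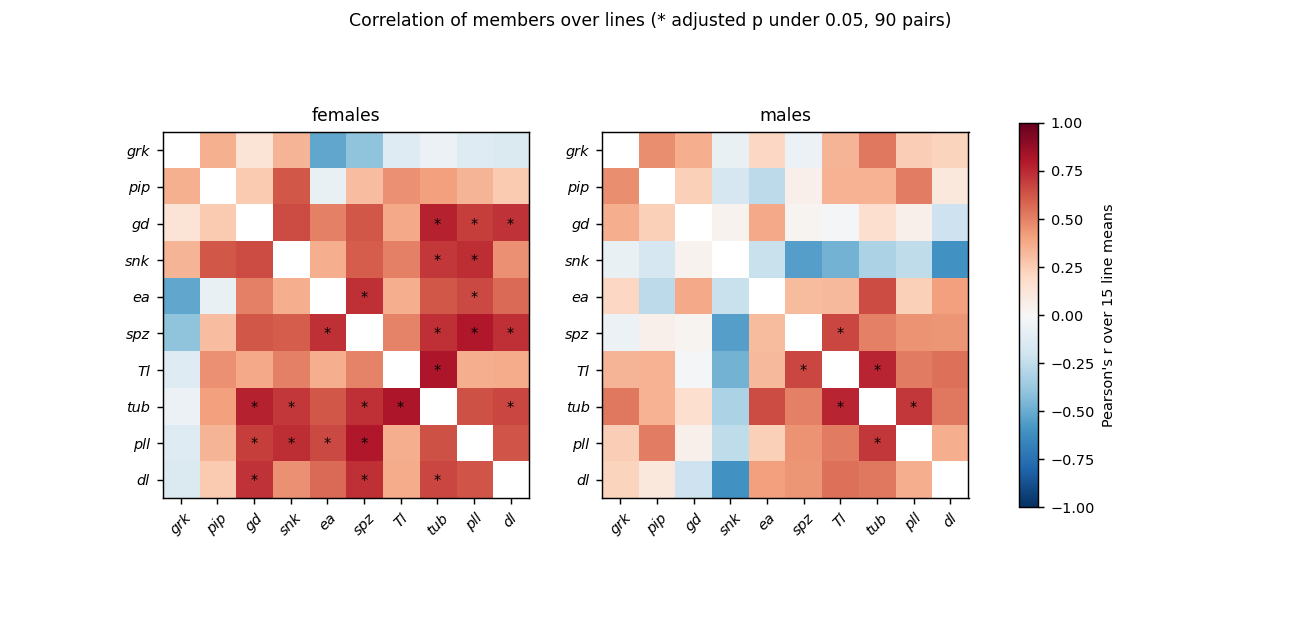
Pearson's r over the 15 line means between each pair of members, in females (left) and males (right), on a colour scale from -1 (blue) to 1 (red), with asterisks where the adjusted p over 90 pairs was under 0.05. The 12 asterisked female pairs lie among the genes from gd to dl. In females the grk row is pale or blue, and neither it nor the pip row holds an asterisk.

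The genes most like each line-variable member were found by the correlation of the 30 sex-by-line means, centred within each sex. For grk these were CG2004 (r = 0.81), CG32369 (r = 0.70) and Jhbp6 (r = 0.65). For pip they were l(1)G0196 (r = 0.79), fal (r = 0.74) and CG10089 (r = 0.68), and over the 24 means without P13, P26 and P50 the values were 0.28, 0.65 and 0.39. For pll they were Mau2 (r = 0.77), dlp (r = 0.75) and Moca-cyp (r = 0.75), and for dl CG33090 (r = 0.88), SCAP (r = 0.84) and pkaap (r = 0.82). The search ran over the 13646 probe sets annotated to 1 gene, leaving out those of the member itself. These values describe the closest of them and carry no test.

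Genes around the members in the maternal route were set against the same shares over all transcripts, 60.9% higher in females and 30.5% in males. These shares are as deposited and move with the scale. Ribosomal centring put 4236 of the 18769 transcripts higher in females and 12889 in males, and array centring 13813 and 3984. Centred counts of a list, here and below, are to be read against these. Of 13 measured genes of the oocyte signal to the follicle, 11 were higher in females and 1 in males, with a median difference of 2.13 beside 0.27 over all transcripts. The oocyte genes orb and otu, which control translation and germ cell development, had the largest differences, at 11.59 in females and 3.43 in males for orb and 11.35 in females and 3.43 in males for otu. The 1 gene higher in males, named after its value was seen, was Egfr, the receptor of Gurken, at 6.79 in females and 7.08 in males. The gene fs(1)K10, needed to place grk RNA in the oocyte, was 8.28 in females and 6.07 in males and varied among female lines (51.4%, adjusted p = 0.00019). The ubiquitin ligase gene Cbl, which restrains Egfr, was 11.37 in females and 8.47 in males and varied among lines in females (62.9%) and in males (77.9%). Ribosomal centring left 9 of the 13 higher in females and put 4 higher in males. Array centring put all 13 higher in females and 0 in males, so the direction of Egfr rested on the scale.

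Of 5 genes that act beside pip and the proteases, 3 were higher in females and 1 in males, about the share over all transcripts. The follicle cell protease gene ndl, needed for the cascade, was 8.18 in females and 3.85 in males. The gene wbl (windbeutel), whose product takes Pipe through the secretory pathway, was the opposite, at 7.05 in females and 10.05 in males, and varied among male lines (56.01%, adjusted p = 1.3e-05). The genes for the sulfate donor of Pipe, sll (its Golgi transporter) and Papss (its synthetase), were 9.48 in females and 8.22 in males, and 8.42 in females and 6.72 in males. The serpin gene Spn27A, an inhibitor of Easter, was 8.93 in females and 8.86 in males and did not pass. Under ribosomal centring 3 of the 5 genes were higher in females and 2 in males, and under array centring 4 and 1.

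Of 11 measured genes of Toll signalling inside the cell, 8 were higher in females and 2 in males, a count near the 60.9% and 30.5% of all transcripts, with a median of 1.37 beside 0.27. The inhibitor gene cact, which holds Dorsal in the cytoplasm, was 11.91 in females and 9.94 in males, and the adaptor gene wek was 8.67 in females and 6.01 in males. The immune factor gene Dif was 6.12 in females and 4.75 in males. The adaptor gene Myd88, the partner of tub, was 8.46 in females and 7.87 in males and varied among lines in males (61.2%) and by sex and line (39.0%) but not in females (0%). The 2 higher in males, named after their values were seen, were aPKC, at 7.23 in females and 8.25 in males, and ref(2)P, at 11.48 in females and 11.68 in males. Array centring gave 10 higher in females and 1 in males, and ribosomal centring 7 and 3.

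Of 9 measured genes of the immune branch upstream of spz, 0 were higher in females and 7 in males, beside 60.9% and 30.5% of all transcripts, with a median of -0.91. The gene SPE, whose protease cuts Spätzle in immunity as Easter does in the embryo, was 7.81 in females and 10.04 in males (difference -2.24, adjusted p = 1.9e-15). The serpin gene nec was 8.69 in females and 10.25 in males. Among the lists this branch had the most line calls, 5 of 9 in females and 6 of 9 in males. The members had 2 and 4 of 10, and of all transcripts 8.36% passed in females and 27.3% in males. The serine protease homologue gene sphe varied among lines by 76.3% of the variance in females and 93.6% in males, and the protease gene psh by 67.6% in females and 72.5% in males. Ribosomal centring gave 0 higher in females and 9 in males, and array centring gave 2 higher in females and 5 in males.

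**Figure D5:**
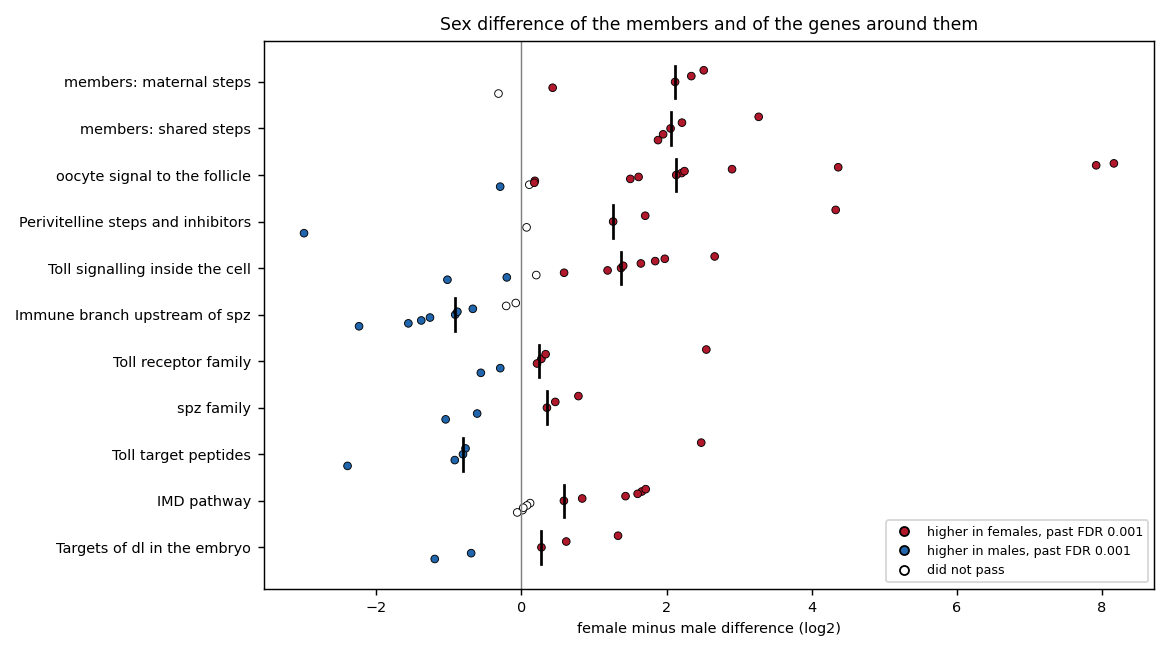
Female minus male difference (log2) of the members and of the genes around them, 1 point per gene, with red for higher in females, blue for higher in males, white for genes that did not pass and a black bar at the median of each list. The immune branch upstream of spz lies left of zero, with a median of -0.91, and Toll signalling inside the cell lies mostly right of it, with a median of 1.37.

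Relatives and targets of the pathway were mixed, where 60.9% of all transcripts were higher in females and 30.5% in males. The counts of the Toll receptor and spz family genes were near these shares. Of 6 measured Toll receptor genes, 4 were higher in females and 2 in males, with Tollo at 9.63 in females and 7.09 in males and 18w at 9.15 in females and 9.71 in males. Of the 4, MstProx, Toll-4 and Tehao were dim in both sexes, with differences of 0.28, 0.22 and 0.33, and are named after their values were seen. Of 5 spz family genes, 3 were higher in females and 2 in males, with spz5 at 5.41 in females and 6.45 in males and spz6 at 4.75 in females and 3.97 in males. Under ribosomal centring 1 of the 6 receptor genes and 0 of the 5 spz family genes were higher in females, and 5 receptor genes and 4 spz family genes were higher in males. Array centring gave 5 receptor genes higher in females and 0 in males, and 3 and 1 for the spz family. Over all 18769 transcripts the counts were 4236 and 12889 under ribosomal centring, and 13813 and 3984 under array centring.

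Of 5 measured immune peptide genes that Toll controls, 1 was higher in females and 4 in males, where 60.9% and 30.5% of all transcripts were. The antifungal peptide gene Drs was 12.64 in females and 10.16 in males, and BomBc3 was 8.98 in females and 11.38 in males. Of 11 genes of the IMD pathway, the other humoral route of the fly, 6 were higher in females, 0 in males and 5 did not pass. The female count was near the share of all transcripts. IKKbeta was at 8.93 in females and 7.21 in males, and Fadd at 8.36 in females and 6.70 in males. Of 5 genes that Dorsal regulates in the embryo, 3 were higher in females and 2 in males, near the shares of all transcripts. The gene sna was at 5.18 in females and 3.85 in males, and dpp at 6.73 in females and 7.92 in males. Under ribosomal centring the counts higher in females and in males were 1 and 4 for the peptides, 5 and 5 for the IMD pathway and 1 and 3 for the targets of Dorsal, and under array centring they were 1 and 1, 11 and 0, and 3 and 1. Over all 18769 transcripts they were 4236 and 12889 under ribosomal centring, and 13813 and 3984 under array centring.

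Markers of other cell types moved with sex beside these groups. Eggshell and follicle cell genes were 11.92 to 12.94 in female arrays and 4.32 to 6.69 in male arrays, accessory gland genes 3.40 to 4.17 in female arrays and 13.43 to 13.97 in male arrays, and muscle genes 7.19 to 9.43 in female arrays and 10.03 to 11.31 in male arrays. The mean of the fat body genes overlapped, at 8.93 to 10.52 in female arrays and 9.69 to 10.57 in male arrays, as did that of the haemocyte genes, at 5.94 to 6.69 in female arrays and 5.92 to 6.95 in male arrays. These means join genes that went opposite ways. Of 3 fat body genes 1 was higher in females and 2 in males, and of 6 haemocyte genes 2 were higher in females and 3 in males. Their part in the sex differences of the members was not tested.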

How the data were processed

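Whole flies of both sexes were measured on 120 arrays, with line, sex and replicate number read from the labels. Deposited values are on the log2 scale, made by the authors with RMA in the affy package, whose versions are not given in the sources used here, so depth is unknown and the number of arrays limits the precision. Of 18952 probe sets, 183 controls were left out. Of the other 18769, the array annotation ties 13646 to 1 gene, 402 to several and 4721 to none, and 13543 names were brought up to date by Entrez ID from a RefSeq table of assembly Release 6 plus ISO1 MT, which also gave the chromosome arms.

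Each transcript was fitted with sex fixed and line and sex by line random, following the methods of the paper without its batch term, since the batch of each array is not given in the sources used here. Sex was tested by an F test on 14 denominator degrees of freedom, and variances by restricted likelihood ratio tests against a chi-square mixture, in closed form, checked against lme4 and tested on simulated data. Line was tested within each sex as well. Benjamini-Hochberg adjustment ran over all transcripts, with a false discovery rate of 0.001. A transcript with a mean under 5 is called dim. Correlations used 100000 two-sided permutations and a false discovery rate of 0.05 within each set of relations.

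The members, gene lists and tests were chosen with earlier results of these data known. Named list genes were cact, Dif, Myd88, ndl, windbeutel, Spn27A, SPE and Drs, the 2 with the largest sex difference in each list, and genes with a line term, and others are marked. List genes without a probe set of their own were not analysed here. Alternatives were centrings, replicates and lines left out, limma, a filter on dim transcripts, another threshold, a replicate block and other probe sets. Tools were Python 3.11.15 (numpy 2.4.6, scipy 1.17.1, pandas 2.3.3, matplotlib 3.10.9) and R 4.3.3 (limma 3.58.1, lme4 1.1.37).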

Additional observations from a re-analysis of the deposited data

Results flagged for a closer look

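Among 300 sets of 4 samples (10 members, 15 lines, both sexes), 17 had 1 sample far from the other 3, and chance gives about 1 in 20. In pip the male sample P22 replicate 1 was low at 5.23 (others 7.26 to 7.58) and P48 replicate 1 high at 7.53 (others 6.05 to 6.20). In snk the female sample H10 replicate 4 was low at 6.86, and in ea the female sample H13 replicate 2 was low at 8.71. In spz the female samples H09 replicate 1 and P22 replicate 2 were low at 9.79 and 9.31, the female sample H13 replicate 3 was high at 10.09, and the male sample H09 replicate 3 was high at 8.07. In Tl the male sample H10 replicate 4 was low at 8.11, and in tub the male sample P50 replicate 1 was high at 8.35. In pll the female sample P48 replicate 4 was low at 8.53, and the male samples P18 replicate 1, P22 replicate 2 and P26 replicate 4 were low at 6.45, 6.31 and 6.59. In dl the female samples H10 replicate 3, P13 replicate 1 and P48 replicate 4 were low at 9.92, 9.98 and 9.74. The female sample P48 replicate 4 is thus low for both pll and dl. The sex difference of grk differed among lines by the sex-by-line test, which took 32.7% of the variance.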

How the results depend on the processing

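The count of 9 members higher in females held under every alternative run except the ribosomal protein centring, where it was 8, grk turned to -0.24, and 2 members, grk and pip, were higher in males. That centring put 4236 of 18769 transcripts higher in females and 12889 in males. By its other probe set dl was reversed at -1.46, and 8 further probe sets of pip were positive (0.18, 0.30, 0.20, 0.29, 0.44, 0.22, 0.21 and 0.34). The line counts fell or held with fewer samples, and the share of all transcripts in these settings was not counted. Leaving out a replicate number or a line gave 0 to 4 members in males, 0 to 2 in females and 0 to 1 by sex and line. Without lines P13, P26 and P50, chosen after seeing the data, these were 2, 1 and 0, and limma called 4 members, and 27.4% of all transcripts, for line over both sexes, where line was tested against the residual and not against sex by line. Correlated pairs were 19 in females with arrays centred on their median, 2 in females and 1 in males with the ribosomal protein centring, and 1 to 20 in females and 0 to 5 in males with a replicate number or line left out. The labels do not say what equal replicate numbers share. Same-numbered female and male samples of a line deviated together in 19 of 60 cases (r over 0.1), against 10 of 180 with other numbers, and 31 of 60 female samples were closest to the male sample of their own number, where 15 are due by chance. Within a sex, same-numbered samples of different lines did so in 424 of 840 pairs, against 385 of 2520. The numbers thus carry shared deviations, but not in every pair, and they were not taken as a pairing. Whether they match the hybridisation batches that the methods mention is not given in the sources used here. The replicate block changed no member call, with 9, 4, 2 and 1 members for sex, line in males, line in females and sex by line.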
